A study of Mus musculus with 2 samples.

Results

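The microRNAs (miRNAs) described here are 7 products of 5 precursors that are known from blood vessels, platelets and tumours: mmu-miR-126a-3p and mmu-miR-126a-5p, mmu-miR-21a-5p and mmu-miR-21a-3p, mmu-miR-221-3p, mmu-miR-222-3p and mmu-miR-31-5p. The prefix mmu, for mouse, is left out below. They were chosen by name from the annotation of a mouse miRNA array and make up 7 of its 1881 miRNAs. The arrays were hybridized with RNA of exosomes, small vesicles that cells release into body fluids, from the serum of C57BL/6 mice with subcutaneous tumours of luciferase-expressing Lewis lung carcinoma (LLC) cells, a mouse lung cancer line. In the LLC group 1000000 LLC cells were given alone, and in the MSC+LLC group they were given together with purchased, cultured mesenchymal stem cells of mouse bone marrow (BMSCs). The mice of the study were 6-week-old females of the wild-type strain, and blood was taken once tumours averaged 200 mm3. The sample labels speak of serum and the text of the study of plasma. There was 1 array per group, the labels do not say how many mice were pooled for it, and no group without a tumour was analysed here, so each value below is a value of 1 array and no difference could be tested.

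A miRNA is cut from a hairpin precursor whose 2 arms give a 5p and a 3p product, of which usually 1 is kept in the silencing complex. Its seed, bases 2 to 8, pairs with target messenger RNAs and lowers their output. miR-126 is made in endothelial cells and megakaryocytes, and carried by platelets, from an intron of Egfl7, a gene for a secreted vessel protein, and favours growth factor signalling by repressing Spred1 and Pik3r2. miR-21 is raised in most solid tumours and represses the tumour suppressor Pdcd4. miR-221 and miR-222 come from 1 gene cluster, share their seed and repress the cell cycle inhibitor Cdkn1b, while in endothelial cells they repress Kit. miR-31 is raised in many lung tumours.

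The mature sequences, from the RefSeq miRNA table of build GRCm38.p6, are shown for the members with an entry in it (6 of 7), since their seeds decide which of them form a family. Capitals mark the seed.
mmu-miR-126a-3p: uCGUACCGugaguaauaaugcg
mmu-miR-21a-5p: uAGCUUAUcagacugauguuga
mmu-miR-21a-3p: cAACAGCAgucgaugggcuguc
mmu-miR-221-3p: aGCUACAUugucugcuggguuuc
mmu-miR-222-3p: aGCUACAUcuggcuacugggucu
mmu-miR-31-5p: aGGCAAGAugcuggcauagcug
The seeds of miR-221-3p and miR-222-3p were the same, and those of the other members differed from it and from each other. Of 1679 mature miRNAs in the table, 3 (0.179%) carried the seed GCUACAU, the third being miR-1928, which was detected on neither array. The first 8 bases of miR-221-3p and miR-222-3p were identical, and over their 23 positions, set side by side without gaps, 11 were identical and 12 differed, so the members of this pair can be told apart by their 3′ parts. miR-21c carried the seed of miR-21a-5p and was not detected on either array, and no other mature miRNA carried the seed of miR-126a-3p, miR-21a-3p or miR-31-5p.

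In the same build, miR-126a-3p lies on the plus strand at chr2:26591402-26591423, inside Egfl7. miR-21a-5p and miR-21a-3p lie on the minus strand at chr11:86584120-86584141 and chr11:86584082-86584103, within the bounds of Vmp1. miR-221-3p and miR-222-3p lie on the minus strand at chrX:19146307-19146329 and chrX:19146901-19146923, their hairpins are 504 bases apart, and no other annotated gene overlaps them. miR-31-5p lies on the minus strand at chr4:88910614-88910635, within the long noncoding RNA Gm49890. The scanner files name mm9 as the build of the array design and give no positions, so no coordinate was taken from them.

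Probes seen on both arrays were mostly dimmer for MSC+LLC, which sets how far each member could be followed. Taken over probes seen on both, the 75th percentile was 2883 intensity units for LLC and 250.3 for MSC+LLC, 11.5-fold lower. Spike-in RNAs added at hybridization differed by 0.038 (log2 of MSC+LLC over LLC) and those added at labelling by -1.32. Detection of a probe required that over 50% of its spots stood well above background by the scanner software's flag. The dimmest probe that met this rule gave 20.9 intensity units for LLC and 18.8 for MSC+LLC, and the negative control spots gave 2.09 ± 3.82 for LLC (SD over 986 spots) and for MSC+LLC 3.70 ± 3.43 (SD over 965 spots). Ratios below are log2 of MSC+LLC over LLC after each array was divided by its own 75th percentile, which raised every log2 ratio by 3.53. The negative control means were not subtracted, and their part in a signal is largest for the dimmest MSC+LLC probes. Each SD is taken over the spots of a probe within an array and is technical. In exosomes of mixed origin, fewer vesicles from a cell type and less of a miRNA per vesicle cannot be told apart.

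In the LLC sample 6 of the 7 members were detected and in the MSC+LLC sample 5, beside 26.7% and 13.7% of all miRNAs on the array. The strands detected on both arrays were miR-126a-3p, miR-21a-5p, miR-221-3p, miR-222-3p and miR-31-5p. miR-126a-5p passed on the LLC array alone, and miR-21a-3p on neither. Before scaling, all 5 were dimmer in the MSC+LLC group. After scaling, 1 of them, miR-222-3p, was higher by 2-fold or more, beside 27.1% of the 240 miRNAs with a ratio, and 0 were lower by as much, beside 11.2%. The median log2 ratio of the 5 members was 0.19 and that of the 240 miRNAs 0.15. The 240 are the miRNAs with a probe detected on both arrays, out of 502 detected for LLC and 258 for MSC+LLC. Those that fell below detection for MSC+LLC are missing from the shares, the median and the ranks given below. With 5 miRNAs, 1 higher and 0 lower are each within 1 miRNA of what those background shares give, so the counts say nothing particular about the members.

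**Figure D1:**
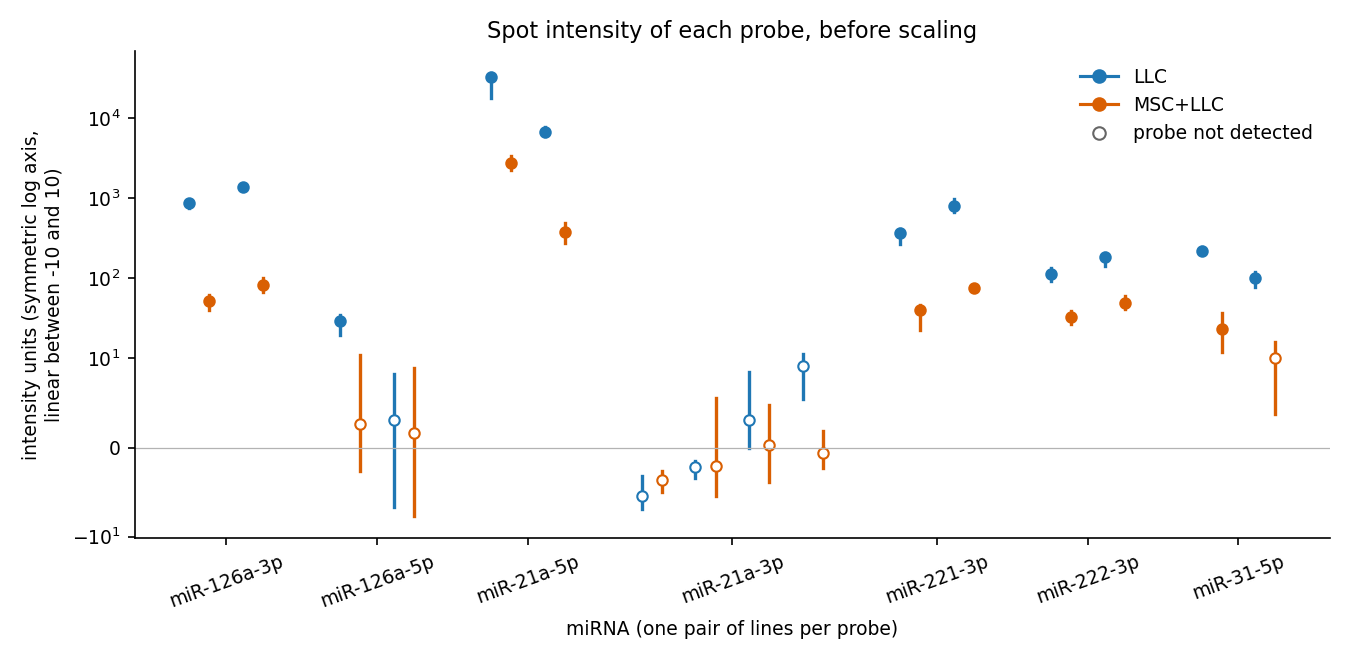
Intensity of the spots of each probe of the 7 miRNAs before scaling, on a symmetric log axis that is linear between -10 and 10. Points are medians over the kept spots, lines run from the lowest to the highest spot, and open points are probes that were not detected. The spots of every probe detected on both arrays were dimmer for MSC+LLC with no overlap, and all 4 probes of miR-21a-3p lay near 0 on both.

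miR-126a-3p, the guide strand of miR-126, was the member with the lowest ratio after scaling, an order that changed under normexp background correction, where miR-21a-5p was lowest (-0.40). This place also rests on averaging the probes of miR-21a-5p, whose dimmer probe (-0.58) lay below both probes of miR-126a-3p. The brighter probe of miR-126a-3p gave 1378 ± 67.7 intensity units for LLC (SD over 15 spots, lowest 1273, median 1381, highest 1477) and 84.8 ± 8.75 for MSC+LLC (SD over 15 spots, lowest 67.0, median 82.9, highest 102). Its other probe gave 877 ± 55.0 for LLC (SD over 13 spots) and 53.0 ± 6.96 for MSC+LLC (SD over 15 spots). The spots of the arrays did not overlap for either probe, and the drop in brightness was 16.3-fold and 16.6-fold, more than the 11.5-fold of the array as a whole. After scaling the log2 ratio was -0.51 (1.42-fold lower), with a spot-to-spot SD of 0.19 and with its probes at -0.50 and -0.52, and was above 0 under normexp alone (0.09). A lower ratio was found for 22.9% of the 240 measured miRNAs. The probes of miR-126a-3p agreed more closely than those of most miRNAs, since 11.0% of the 146 miRNAs with at least 2 measured probes had a smaller range between them. Both probes stood far enough above the detection limit that ratios down to -2.02 and -2.67 could have been seen.

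miR-126a-5p, the opposite arm, was near the limit. Its brighter probe gave 28.1 ± 4.38 intensity units for LLC (SD over 14 spots, lowest 19.4, median 29.1, highest 35.3), where 12 of the 14 spots were well above background. For MSC+LLC the same probe gave 3.31 ± 3.35 (SD over 13 spots), where no spot passed as well above background, and a mean at the level of the negative controls. The other probe gave 2.17 ± 4.55 for LLC and 1.78 ± 4.23 on the MSC+LLC array (SD over 15 spots each) and was detected on neither. The smallest log2 ratio that the brighter probe could have shown was 2.94. A miR-126a-5p level that had kept pace with the probes detected on both arrays would thus also have gone undetected. Its ratio lies below that limit, and no lower limit can be given.

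The strand opposite the miR-126a gene carries a second annotated precursor, miR-126b. The hairpins share 58 bases. It is shown because its 5p product is nearly the complement of miR-126a-3p.
mmu-miR-126b-5p: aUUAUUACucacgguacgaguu
A run of 19 of the 22 bases of miR-126a-3p pairs exactly with it. The 2 probes of miR-126b-5p gave means between -4.52 and -2.30 intensity units over both arrays and the 2 probes of miR-126b-3p between -2.21 and 0.082, with no spot well above background. The signal at this locus was therefore measured on 1 strand.

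Since miR-126a-3p is also carried by platelets, markers of blood cells and other tissues are given beside it. Of the 4 platelet and leukocyte markers, 4 were detected for LLC and 3 for MSC+LLC, and none was at the value of 0.1 that the scanner software gives to miRNAs its own flag calls undetected. Their signal, summed by the scanner software, was 8270 intensity units for LLC and 565 on the MSC+LLC array. They moved apart, with miR-223-3p at a scaled log2 ratio of 0.14, miR-142a-5p at -2.12 and miR-142a-3p at -2.25, while miR-150-5p was seen for LLC alone. All 4 red cell markers were detected in both samples, with summed signals of 43335 and 5960, and ran from -2.33 for miR-144-3p to 1.66 for miR-486a-5p, with miR-451a at 1.06. The 3 liver markers summed to 1903 and 126, with miR-194-5p undetected on the MSC+LLC array, miR-122-5p at 0.78 and miR-192-5p at -0.32. The 3 muscle markers summed to 1242 and 166, with a median of 1.07. The ratio of miR-126a-3p lay within the wide range of the 3 platelet and leukocyte markers with a ratio, and also within that of the red cell markers. The part of these cells in its ratio was not tested.

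miR-21a-5p, the guide strand of miR-21, gave a different ratio on each of its probes. The brighter probe gave 30510 ± 6100 intensity units for LLC (SD over 15 spots, lowest 17686, median 32286, highest 36497) and 2803 ± 296 for MSC+LLC (SD over 15 spots, lowest 2239, median 2779, highest 3392). The other gave 6695 ± 493 for LLC (SD over 13 spots, lowest 5894, median 6605, highest 7651) and 389 ± 62.5 for MSC+LLC (SD over 15 spots, lowest 276, median 375, highest 491). For both probes the arrays did not overlap, but the brighter probe dropped 10.9-fold and the other 17.2-fold. The scaled log2 ratios were 0.08 and -0.58, which lie on opposite sides of 0. Their range of 0.66 was wider than that of 93.8% of the 146 miRNAs with at least 2 measured probes, the median range being 0.13. The spots of the brighter probe on the LLC array varied by 19.99% (coefficient of variation) against a median of 9.73% over detected probes on that array, and no spot on either array was saturated. The mean of the probes was -0.25 (1.19-fold lower), smaller in size than the spot-to-spot SD of 0.29, which describes the spread of spots and is not the error of that mean. It lay 0.40 below the median of the 240 miRNAs. Detection set no limit here, since the brighter probe could have shown ratios down to -7.14.

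miR-21a-3p, the other arm of this precursor, was at background. Its 4 probes gave means between -5.17 and 9.0 intensity units for LLC and between -3.75 and 0.52 on the MSC+LLC array, over 5 to 8 kept spots each, and no spot was well above background. The brightest of them gave 9.0 ± 1.98 for LLC (SD over 6 spots), below the lowest detected probe of 20.9. The 2 arms of miR-21a thus fell on opposite sides of detection on both arrays, as the 2 arms of miR-126a did on the MSC+LLC array.

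miR-221-3p and miR-222-3p, the pair with a common seed, differed from each other. The brighter probe of miR-221-3p gave 805 ± 96 intensity units for LLC (SD over 15 spots, lowest 675, median 798, highest 987) and 76.4 ± 4.22 for MSC+LLC (SD over 13 spots, lowest 69.7, median 76.0, highest 82.6). Its other probe gave 363 ± 39.3 for LLC (SD over 15 spots) and 37.6 ± 7.05 for MSC+LLC (SD over 14 spots). These probes dropped 10.5-fold and 9.64-fold, close to the array as a whole, and the scaled log2 ratio of miR-221-3p was 0.19 with a spot-to-spot SD of 0.26, and fell below 0 in the deposited values (-0.15), with the percentile over all probes (-1.02), with the spike-ins and without scaling. Of the 240 measured miRNAs, 51.7% had a lower ratio.

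The brighter probe of miR-222-3p gave 175 ± 20.6 intensity units for LLC (SD over 15 spots, lowest 142, median 186, highest 206) and 49.8 ± 6.04 for MSC+LLC (SD over 15 spots, lowest 41.8, median 49.4, highest 60.9). Its other probe gave 111 ± 13.3 for LLC (SD over 15 spots, lowest 92.3, median 112, highest 136) and 33.4 ± 4.62 for MSC+LLC (SD over 15 spots, lowest 27.1, median 32.9, highest 39.5). The arrays did not overlap for either probe. The drops of 3.52-fold and 3.32-fold were much smaller than the 11.5-fold at the 75th percentile of probes detected on both arrays. After scaling the log2 ratio of miR-222-3p was 1.75 (3.37-fold higher) and its probes stood at 1.71 and 1.80, with an SD over spots of 0.25. Of the 240 measured miRNAs, 83.3% had a lower ratio, and miR-222-3p lay 1.604 above their median. This rank is bounded by detection, since its probes could have shown no log2 ratio below 0.30 and 0.96. At the median of the 240 miRNAs (0.15) miR-222-3p would have gone undetected on the MSC+LLC array and had no ratio. The direction of its ratio rests on the scaling, and the log2 ratio was -1.77 when unscaled, -1.81, -1.13 and -0.46 when scaled to the hybridization, to all 4 or to the labelling spike-ins, and 0.54 when all probes entered the 75th percentile.

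The difference between the 2 family members does not rest on a scaling that divides an array by 1 number. The log2 ratio of miR-222-3p exceeded that of miR-221-3p by 1.56 (2.95-fold), with a spot-to-spot SD of the difference of 0.36, and each probe of miR-222-3p exceeded each probe of miR-221-3p. Without replicate arrays this spread holds no variation between mice. Detection limits bear on it, since the probes of miR-222-3p could have shown no log2 ratio below 0.30 and 0.96, and a ratio equal to that of miR-221-3p would have left it undetected on the MSC+LLC array. The opposite arms gave nothing to compare, because miR-221-5p (2 probes, means between -0.26 and 2.71 intensity units over both arrays) and miR-222-5p (3 probes, means between -5.67 and 6.31) were detected on neither.

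**Figure D2:**
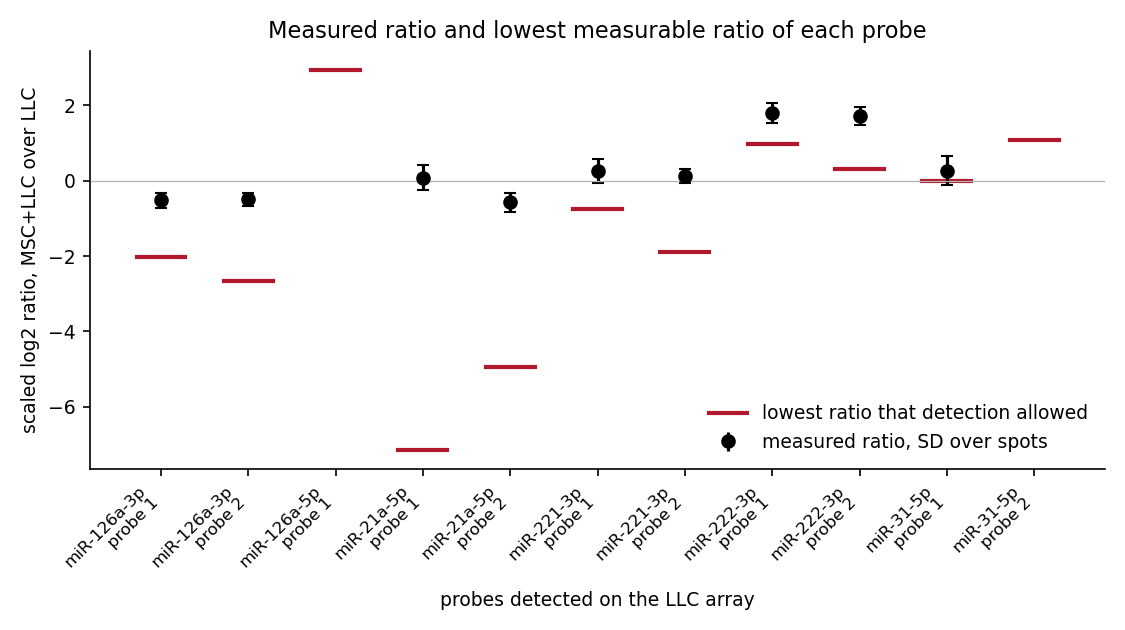
Scaled log2 ratio of each probe detected on the LLC array (points, with the SD over spots) and the lowest ratio at which it would still have been detected on the MSC+LLC array (red bars). Probes without a point had no detected signal for MSC+LLC. Both probes of miR-222-3p lie above those of miR-221-3p, and the probe of miR-31-5p sits close to its limit of -0.02.

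miR-31-5p was measured by 1 of its 2 probes. The brighter probe gave 219 ± 12.9 intensity units for LLC (SD over 13 spots, lowest 198, median 219, highest 245) and 22.9 ± 6.04 for MSC+LLC (SD over 15 spots, lowest 11.9, median 23.1, highest 37.4), where 12 of 15 spots were well above background. The other gave 102 ± 11.6 for LLC and 9.79 ± 3.05 on the MSC+LLC array (SD over 15 spots each), where it was not detected. The spots of the arrays did not overlap for either probe. The scaled log2 ratio of the brighter probe was 0.27 (1.21-fold higher), less than its SD over spots of 0.39, and it could have shown no ratio below -0.02. The negative control means, 3.70 for MSC+LLC and 2.09 for LLC, are a larger part of its 22.9 than of its 219 and were not subtracted. The ratio of miR-31-5p was 0.08 above that of miR-221-3p, within the spot-to-spot SD of that difference of 0.47. Of the 240 measured miRNAs, 55.4% had a lower ratio, and the sign of its own ratio turned under quantile normalization (-0.44), with summed signals (-0.23), in the deposited values (-0.60), with the percentile over all probes (-0.94), with the spike-ins and without scaling. Its opposite arm, miR-31-3p, was detected for LLC alone, where 1 probe gave 32.5 ± 2.52 (SD over 12 spots) against 2.13 ± 2.25 for MSC+LLC (SD over 15 spots). The smallest log2 ratio that this probe could have shown was 2.74. A level that had kept pace with the probes detected on both arrays would thus also have gone undetected. The other probe of miR-31-3p gave 13.6 ± 3.34 for LLC (SD over 15 spots) and was detected on neither array.

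Ordered by scaled ratio, the members ran from miR-126a-3p through miR-21a-5p, miR-221-3p and miR-31-5p to miR-222-3p. The place of miR-21a-5p is that of a mean of probes at 0.08 and -0.58, the lower of which lay below miR-126a-3p. Quantile normalization put miR-31-5p (-0.44) below miR-21a-5p (-0.35), and so did summed signals (-0.23 against 0.04) and the deposited values (-0.60 against -0.33). Of the 10 pairs that the 5 members form, the 4 that contain miR-222-3p differed most, by 1.48 to 2.26 on the log2 scale. The neighbours miR-126a-3p and miR-21a-5p differed by 0.26, within a spot-to-spot SD of 0.35. miR-21a-5p lay 0.44 below miR-221-3p, just over the SD of 0.39, and miR-126a-3p lay 0.70 below it, over an SD of 0.32. The neighbours miR-31-5p and miR-222-3p differed by 1.48, over an SD of 0.46. These SDs describe the spread of spots, not the error of a mean or the variation between mice, and they decide no difference.

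**Figure D3:**
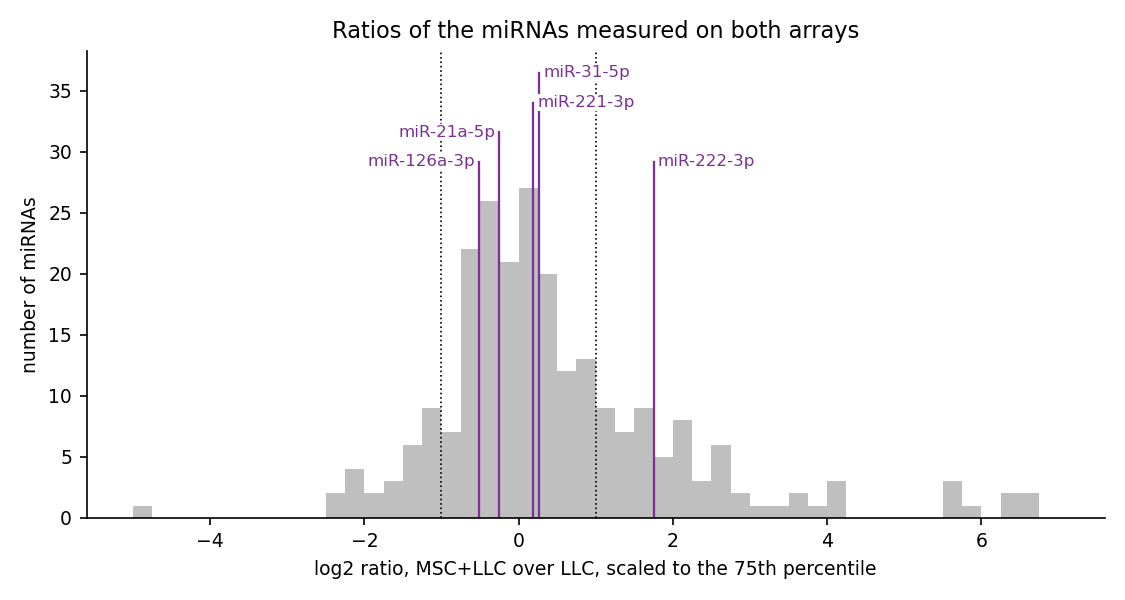
Number of miRNAs by scaled log2 ratio of MSC+LLC over LLC, for the 240 miRNAs measured on both arrays, in steps of 0.25. Purple lines mark the 5 members with a ratio and dotted lines a 2-fold difference, which miR-222-3p alone of the 5 passes.

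With 2 arrays the likeness of a pattern comes down to the difference in scaled log2 ratio, taken over the 145 or 146 other miRNAs with at least 2 measured probes. Nearest to miR-126a-3p were miR-130b-3p (-0.51) and miR-7088-5p (-0.50). Nearest to miR-21a-5p were miR-30a-5p (-0.26) and miR-3081-5p (-0.27). Nearest to miR-221-3p were miR-7118-5p (0.22) and miR-152-3p (0.17), and to miR-31-5p miR-210-3p (0.27) and miR-23a-3p (0.28). Nearest to miR-222-3p were miR-378a-3p (1.74) and miR-5100 (1.74). All of these lay within 0.03 of the member. The spot-to-spot SDs of the members, 0.19 to 0.39, were wider than that, and the probes of miR-5100 stood at 1.37 and 2.10. Among so many candidates such closeness does not show a shared pattern.

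Other miRNAs known from endothelial cells or vessel growth were taken as a list of 13. Of these, 11 were measured on both arrays, 2 were detected on the LLC array only, 3 had ratios past 2-fold above and 0 past 2-fold below after scaling, and the median log2 ratio was 0.27, beside 27.1% higher, 11.2% lower and a median of 0.15 for all 240 miRNAs. The highest was miR-378a-3p at 1.74 and the lowest miR-130a-3p at -0.63, and the others past 2-fold, named after their values were seen, were miR-92a-3p (1.25) of the miR-17-92 cluster and miR-296-5p (1.21). The ratio of miR-126a-3p was thus near the lower end of this list. Of a list of 13 other miRNAs known to be raised in tumours, 9 were measured on both arrays and 2 were detected on the LLC array only, with a median log2 ratio of -0.56. Past 2-fold lay 1 above, miR-183-5p at 3.00, and 1 below, miR-18a-5p at -1.40, beside the same 27.1% and 11.2%. miR-21a-5p (-0.25) lay above the median of this list as a mean of its probes, but the probes, at 0.08 and -0.58, lay on either side of it. Without scaling the medians of the lists became -3.26 and -4.09, beside -3.38 for all 240 miRNAs.

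**Figure D4:**
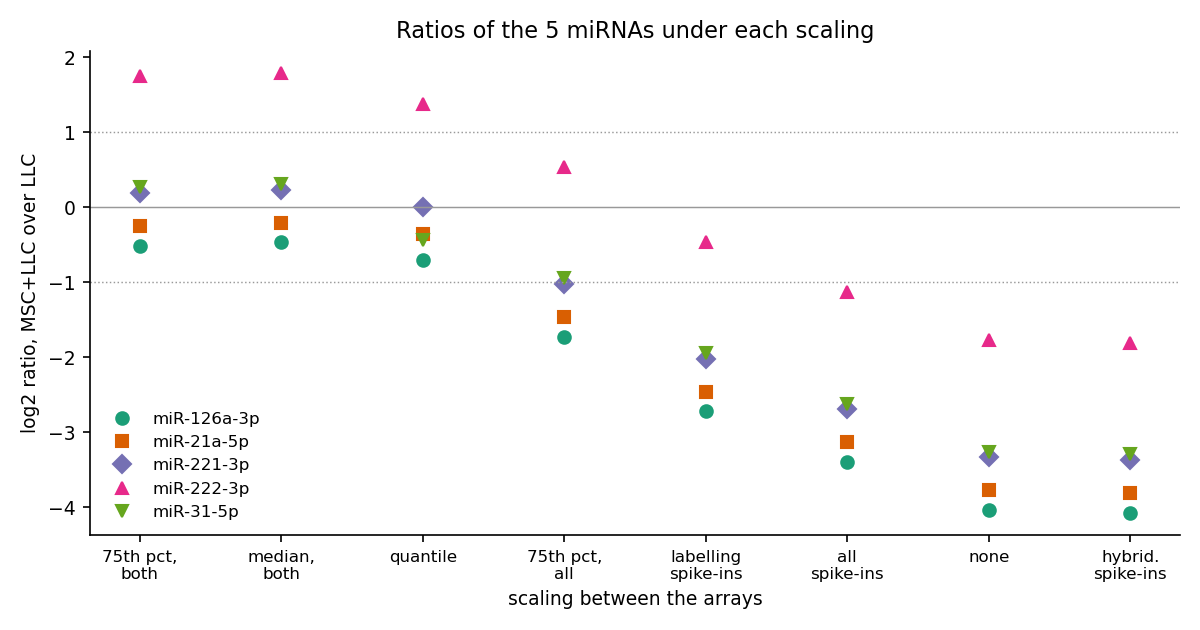
Log2 ratio of MSC+LLC over LLC of the 5 members measured on both arrays under each scaling. Dotted lines mark a 2-fold difference in either direction. miR-222-3p lies above the others under every scaling shown. Apart from quantile normalization, these divide an array by 1 number or leave it unscaled, so they cannot change the order of the members. The sign of miR-222-3p turns between the 75th percentile of all probes (0.54) and the labelling spike-ins (-0.46).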

How the data were processed

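RNA of serum exosomes (100 ng for LLC and for MSC+LLC) was hybridized to 1-colour (Cy3) Agilent mouse miRNA arrays on the same slide, read in the same scan. Groups came from the sample titles. The members and lists were chosen with earlier results of these data known. The authors ran Feature Extraction, version 11.5.1.1 per the file headers and 10.7 per the labels. The deposited scanner files hold background-subtracted intensity of each spot, linear and not scaled to the other array. The deposited series table holds log2 values from GeneSpring GX. Its settings are not given in the sources used here. Each value equalled log2 of the summed miRNA intensity minus a constant per array (7.02 for LLC and 3.48 for MSC+LLC, to within 7.66e-06), with miRNAs that the scanner software's own flag calls undetected at 0.1, and the medians of its columns were -10.34 and -6.80. Its scale and direction are thus known, and only why these constants were used is not.

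Control spots and outlier spots (3.04% and 2.95%) were left out. Kept spots of a probe were averaged, probes with over 50% of them well above background counted as detected, signals were divided by the array's 75th percentile over probes detected on both, and the log2 ratios of a miRNA's probes detected on both arrays were averaged. The SD of a ratio combines the spot-to-spot coefficients of variation. Since groups are single arrays there was no test, their number limits the precision, and position on the slide and group cannot be told apart. The miRNAs named were the members, the remaining arms of their precursors, miR-126b, the miRNAs nearest in ratio, the extremes of each list and 5 blood and liver markers. Other list members are named as their counts required. The tools were limma 3.58.1 in R 4.3.3 (normexp, offset 50), and Python 3.11.15 with matplotlib 3.10.9, numpy 2.4.6 and pandas 2.3.3, and the ratio function was tested on simulated data. Alternatives were other scalings, spot and probe summaries, detection rules, background correction and fold thresholds.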

Additional observations from a re-analysis of the deposited data

How the results depend on the processing

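No paired analysis was possible because 1 array was made per group. A shift past the SD over spots is taken as a change. The median log2 ratio of the members (0.19) became -3.33 without scaling, -3.37, -2.69 and -2.02 with the hybridization, all 4 and the labelling spike-ins, -1.02 with the percentile taken over all probes, -0.35 after quantile normalization, -0.33 in the deposited values and 0.89 with normexp, and ran from 0.04 to 0.23 under the other 7 alternatives. The number of members at least 2-fold higher (1) became 0 with the percentile over all probes, without scaling, with each spike-in scaling and at a fold threshold of 4, and 2 with normexp, which added miR-31-5p at 1.48. The number at least 2-fold lower (0) became 5 without scaling and with the hybridization or all 4 spike-ins, 4 with the labelling spike-ins and 3 with the percentile over all probes. The log2 ratio of miR-222-3p (1.75) turned to -1.77 without scaling and to -1.81, -1.13 and -0.46 with the hybridization, all 4 and the labelling spike-ins. Each of these divides an array by 1 number and so moves all ratios alike. The deposited values equal the summed signals moved by 1 constant per array. For quantile normalization the cause was not tested. Normexp added an offset of 50 intensity units to each spot. In the main processing the MSC+LLC means were 22.9 for the measured probe of miR-31-5p and 33.4 and 49.8 for miR-222-3p. Those of miR-21a-5p were 2803 and 389. The part of the offset in the normexp ratios was not tested. The median of all miRNAs shifted by -3.53 without scaling, -3.56, -2.89 and -2.21 with the hybridization, all 4 and the labelling spike-ins, -1.21 with the percentile over all probes, -0.28 after quantile normalization, -0.32 in the deposited values, 0.48 with normexp and 0.11 when every spot had to be well above background. Of the 2-fold calls among all miRNAs (65 higher and 27 lower), 70.7% were higher, against 91.7% with normexp, 59% after quantile normalization, 54.7% in the deposited values, 3.56% with the hybridization spike-ins or none, 5.12% with all 4 and 7.69% with those of labelling, and 17.5% with the percentile over all probes. The deposited share is over 295 miRNAs that the scanner software's own flag called detected on both arrays, and the other shares are over 240. The excess of miR-222-3p over miR-221-3p (1.56), a difference chosen after seeing the data, cannot move when an array is divided by 1 number. It was 1.34 with normexp, 1.38 after quantile normalization, 1.46 with the median of spots, 1.57 with summed signals, 1.58 with the brightest probe and 1.61 with outlier spots kept. Of the smaller ratios, that of miR-21a-5p was 0.08 with the brightest probe and 0.04 with summed signals, that of miR-126a-3p was 0.09 with normexp, and that of miR-31-5p was -0.44 after quantile normalization and -0.23 with summed signals. When every spot had to be well above background, miR-126a-5p on the LLC array and miR-31-5p on the MSC+LLC array were not detected, leaving 5 and 4 members. Signal over background limits what could be seen to fall, above all for miR-126a-5p, miR-222-3p and miR-31-5p.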

Other observations

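In the deposited log2 table miRNAs that the scanner software's own detection flag left out hold a summed signal of 0.1 intensity units before the log. miR-21a-3p was left out on both arrays and stood at -10.34 for LLC and -6.80 for MSC+LLC, a difference of 3.54 that equals the difference between the constants of the arrays. The same difference of 3.54 was listed for miR-221-5p, miR-222-5p, miR-126b-3p and miR-126b-5p. miR-126a-5p, left out for MSC+LLC alone, stood at -4.11 and -6.80, a difference of -2.69 against the value for miRNAs left out.

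For miR-31-5p the deposited difference was -0.60, while its scaled probe ratio was 0.27. The summed signal behind the deposited value added 2 probes on the LLC array (58.3 and 27.3, in all 85.6 intensity units) but the brighter probe alone on the MSC+LLC array (4.86). Taken from the brighter probe on both arrays, the difference on the deposited scale was -0.05, and from the other probe -0.18. The remaining members measured on both arrays had deposited differences of -0.82 for miR-126a-3p, -0.33 for miR-21a-5p, -0.15 for miR-221-3p and 1.43 for miR-222-3p, in the same order as their scaled ratios.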
